A study of Mus musculus with 61 samples.

Results

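The genes described here are 43 genes for lysosomal enzymes, their activator proteins, lysosomal proteases and lysosomal membrane proteins in the mouse brain and pituitary gland. They were found as the probe sets annotated to exactly 1 of these genes, and every such probe set was kept, which gave 100 of the 45037 probe sets measured. Of the 43 genes, 31 had several probe sets, and 99 of the 100 probe sets could be tested, since a probe set for Ctsf (1449794_x_at) lay at the signal floor on every array. RNA was measured on 61 Affymetrix arrays from wild-type male mice aged 8 weeks, with no treatment. The inbred strains were FVB/NJ, DBA/2J, A/J, 129S6/SvEvTac, C57BL/6J and C3H/HeJ. From each strain the pituitary gland and 4 brain regions were dissected, namely the periaqueductal gray (pag), the hypothalamus, the hippocampus and the bed nucleus of the stria terminalis (bnst), with 2 arrays for each strain and region and 3 for the C3H/HeJ bnst. An array held pooled RNA from 5 mice for the pituitary gland, from 2 or 3 mice for the bnst and from 2 mice for all but 1 array each of the hypothalamus and pag, whereas each hippocampus array came from 1 mouse. The strains differ at many loci, so a strain difference is not assigned to a single allele. By the methods, 129S6/SvEvTac mice were supplied by Taconic Farms and all other strains by the Jackson Laboratory. Strain and supplier therefore cannot be told apart for 129S6/SvEvTac.

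The lysosome breaks down lipids, glycans, glycogen and proteins in an acidic lumen, with a separate hydrolase for nearly every bond. Many of its sphingolipid hydrolases work with small activator proteins such as the saposins, and most soluble enzymes reach the lysosome through the mannose 6-phosphate sorting route. Loss of a single enzyme causes a storage disease, many of which affect the brain, and the transcription factor TFEB is known to bind a palindromic element holding the letters CACGTG in promoters of many lysosomal genes.

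That element is shown first. The genes were not picked by it, but it is already known from promoters of many lysosomal genes. A higher share among them was therefore foreseeable and is a description, not independent evidence about these genes. Windows around an annotated RefSeq start site (build GRCm38.p6), from 250 bases before it to 50 bases after it, were found for 37 of the 43 genes. They were searched for CACGTG, which reads the same on both strands. The element was present in 14 of these 37 genes (37.8%), against 2187 of all 27025 genes with a window (8.09%). The genes of that background were not matched for base composition. The longer TCACGTGA, which contains it, was present in 5 of the 37 (13.5%), against 304 of all genes with a window (1.12%). A match is a run of letters and was not tested as a binding site. The stretches below come from genes described in the results and are written along the gene's strand, with 1 element in capitals in each (the Lamp1 stretch holds another in lower case, and its whole window 4):
Naglu, chr11:101069996-101070051, plus strand: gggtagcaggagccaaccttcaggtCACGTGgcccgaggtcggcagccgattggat
Lgmn, chr12:102439111-102439166, minus strand: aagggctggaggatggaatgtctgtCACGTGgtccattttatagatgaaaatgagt
Arsa, chr15:89477410-89477465, minus strand: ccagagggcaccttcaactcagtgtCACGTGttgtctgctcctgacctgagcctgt
Gaa, chr11:119267798-119267853, plus strand: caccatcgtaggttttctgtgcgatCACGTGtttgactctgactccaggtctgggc
Ctsd, chr7:142387895-142387950, minus strand: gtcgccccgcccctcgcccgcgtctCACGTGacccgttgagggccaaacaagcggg
Lamp1, chr8:13159075-13159130, plus strand: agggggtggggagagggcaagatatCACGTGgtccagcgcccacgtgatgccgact
Mcoln1, chr8:3500449-3500504, plus strand: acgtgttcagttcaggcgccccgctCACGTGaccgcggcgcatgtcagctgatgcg
Cln3, chr7:126583327-126583382, minus strand: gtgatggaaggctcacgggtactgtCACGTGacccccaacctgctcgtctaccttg
In these stretches the first base of the element lay 73 bases before the start site used in Naglu, 49 in Lgmn, 16 in Arsa, 140 in Gaa, 98 in Ctsd, 61 in Lamp1, 45 in Mcoln1 and 121 in Cln3. In Lgmn and Cln3 that start site lay well inside the gene's annotated bounds (chr12:102394082-102439728 and chr7:126571207-126585817). The windows of Ctsd, Mcoln1 and Cln3 carry the 8-letter form.

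Signals are the linear array intensities deposited by the authors, scaled to a similar mean on every array (180.5 to 200.5), and differences are given on the log2 scale after raising low values to a floor of 12.8. Replicate arrays correlated at a median r of 0.993 over probe sets (lowest 0.9741). The summed signal of 7 probe sets for pituitary hormones was 44800 to 63900 on the pituitary arrays, against at most 7850 on any brain array, and the neuronal markers summed to 3320 to 4580 in the pituitary gland, against 11500 to 17800 in the brain regions, which is the order the region labels give. A pituitary array (C3H/HeJ replicate 2) had an oligodendrocyte marker sum of 4570, against a pituitary median of 219, and brain arrays of C57BL/6J hypothalamus (replicate 1), FVB/NJ pag (replicate 1) and C57BL/6J hippocampus (replicate 2) had the highest hormone sums of their regions. Leaving out these 4 arrays gave the counts stated in the closing section and changed the number of called probe sets by less than 1.5 times, except for the strain by region interaction. Other brain arrays with raised hormone sums were kept in that check. Among them were FVB/NJ bnst replicate 1 (4320, against a bnst median of 490) and the A/J hypothalamus arrays (5720 and 5300).

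Most of the lysosomal genes were region-specific, and fewer were strain-specific. In the test of any difference between the 5 regions, 83 of the 99 probe sets passed (adjusted p under 0.05, limma with Benjamini-Hochberg adjustment over all probe sets tested), beside 71.7% of all 44065 probe sets. In the test of any difference between the 6 strains, 67 of the 99 passed, beside 39.2% of all probe sets. These genes gave bright signals, and bright probe sets pass more often. Among probe sets with a mean signal of at least 100, the strain test was passed by 51 of 62 for the lysosomal genes, against 63.8% of all such probe sets. The region test was passed by all 62 of them, beside 97.4%. Sorted by the rule of the study's methods, here without the methods' filter on probe sets called Present, which calls a probe set specific to whichever factor has the smaller p where that p is under 0.01, 13 of the 100 probe sets were strain-specific, beside 8.87% of all probe sets, and 73 were region-specific, beside 60.6%. The strain-specific probe sets belonged to Galc, Gusb, Lipa, Man2b1, Galns, Acp2, Psap, Ctsh, Cln3 and Mcoln1.

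The pituitary gland had the largest differences. Compared with the mean of the other 4 regions, 58 of the 99 probe sets were higher and 22 lower, beside 66.0% of all probe sets called in either direction (40.6% higher and 25.4% lower). Counting each gene by its brightest probe set, 32 of the 43 genes were higher and 7 lower, with a median log2 difference of 0.32, beside a median of 0.11 over all 17941 genes counted in the same way, of which 72.0% were called. Scaling every array to a common median signal, which moves the median of all probe sets from 0.10 to 0.01, left 21 genes higher and 9 lower, so the size of the surplus depends on that scaling. Of the increases named below, those of Arsa, Neu1, Sgsh, Galns, Gm2a, Ctsk, Ctsa, Ctsd, Tpp1, Lamp1 and Npc1 were no longer called with it. In tissue of many cell types, more cells of a type and more RNA per cell cannot be told apart. Over all markers examined, 7 of 7 probe sets for pituitary hormones were higher in the pituitary gland, and the markers of neurons (6 of 6), astrocytes (6 of 6) and oligodendrocytes (5 of 5) were lower, as were 7 of 9 microglial markers. Their part in the differences below was not tested.

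**Figure D1:**
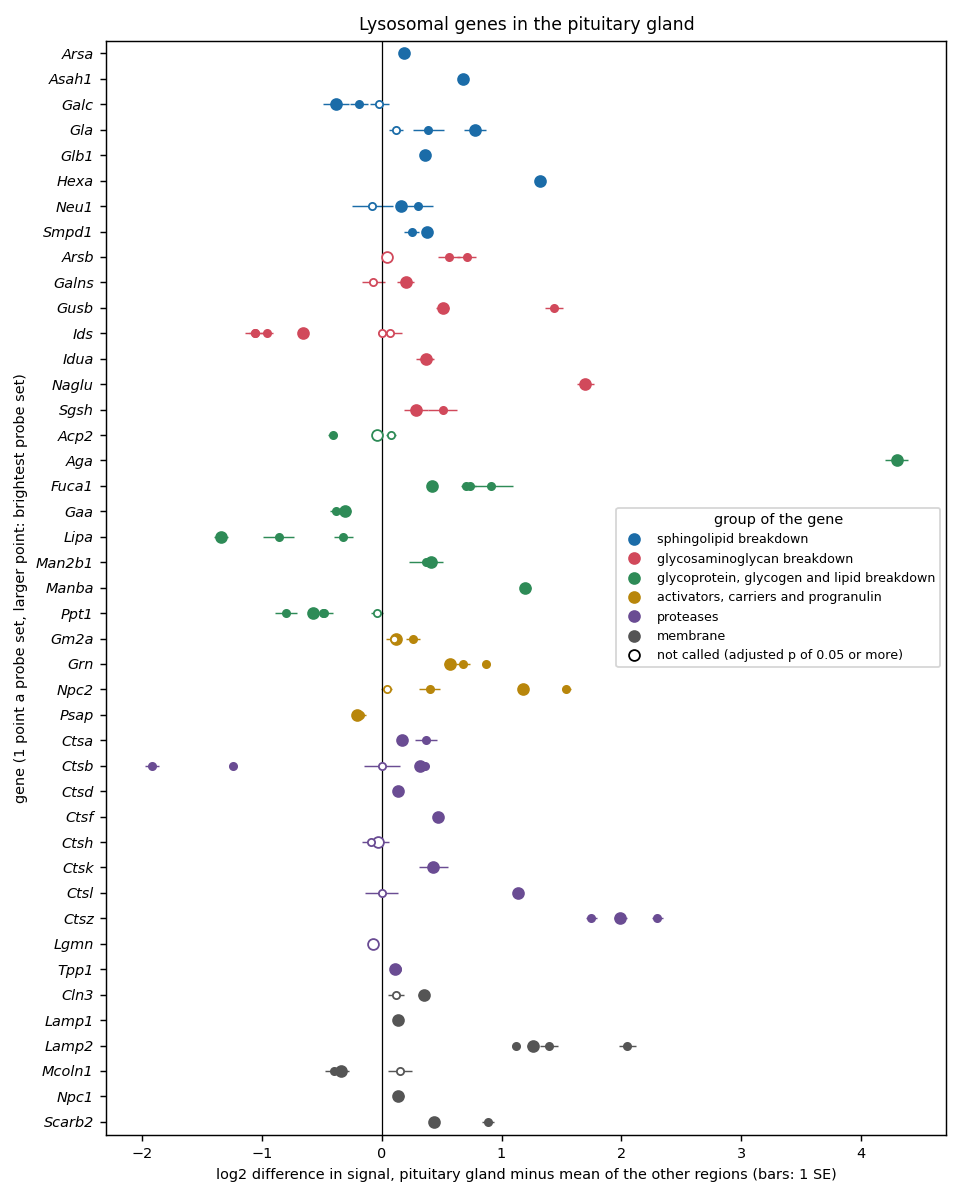
Difference between the pituitary gland and the mean of the other 4 regions for every probe set of the 43 genes (log2, horizontal axis), with the larger point for a gene's brightest probe set, open points for probe sets that did not pass the test, bars of 1 standard error and colours for the gene's role. Aga stands alone at 4.30, Ctsz and Lamp2 reach 2 or more, and Ctsb has probe sets on both sides of 0.

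Of the 8 genes for sphingolipid breakdown, 7 were higher in the pituitary gland and 1, Galc, was lower (median 0.37). With common median scaling the counts were 5 and 1. Hexa, the alpha subunit of the hexosaminidase that degrades GM2 ganglioside, had a lowest, median and highest signal of 1040, 1160 and 1310 on the 12 pituitary arrays, against 379, 469 and 603 on the 49 brain arrays. Every pituitary array lay far above every brain array. The log2 difference was 1.32 (SE 0.032, adjusted p = 3.29e-29), in the same direction in all 6 strains. Asah1, the acid ceramidase, gave 823, 912 and 1110 in the pituitary gland, against 392, 607 and 802 in the brain (log2 difference 0.68, SE 0.035, adjusted p = 2.87e-19), again with no overlap. Gla, the alpha-galactosidase that removes terminal galactose from globosides, had overlapping ranges of 57 to 110 in the pituitary gland and 33.4 to 99.7 in the brain, with a difference of 0.78 by its probe set 1418248_at (adjusted p = 2.18e-09). Smaller increases were measured for Smpd1, the acid sphingomyelinase (0.38), Glb1, the beta-galactosidase of GM1 ganglioside (0.36), Arsa, the sulfatase of the myelin lipid sulfatide (0.19), and Neu1, a sialidase (0.16).

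Of the 7 genes for glycosaminoglycan breakdown, 5 were higher and 1 lower (median 0.29), and 3 were higher and 1 lower with common median scaling. Naglu, which removes N-acetylglucosamine from heparan sulfate, had signals of 152, 190 and 224 (lowest, median and highest) in the pituitary gland, against 39.5, 61.4 and 91.9 in the brain. Gusb, the beta-glucuronidase, had 127, 150 and 217 by its probe set 1448124_at, against 32.9, 58.5 and 106. The ranges did not overlap for Naglu, nor for Gusb by this probe set. The differences were 1.70 for Naglu (SE 0.071, adjusted p = 4.91e-22) and 1.44 for Gusb by 1448124_at (SE 0.076, adjusted p = 6e-19). The brightest probe set of Gusb, 1430332_a_at, was also called higher in the pituitary gland. It was low in A/J in every region, as described below, and no separation of the tissues is claimed for it. The gene that went the other way was Ids, the iduronate sulfatase that opens the degradation of heparan and dermatan sulfate. Its brightest probe set (1455481_at) gave 1600, 1770 and 2030 in the pituitary gland, against 2230, 2820 and 3270 in the brain, with every pituitary array below every brain array. The difference was -0.66 (SE 0.027, adjusted p = 3.23e-22), and its probe sets 1434751_at, 1421216_a_at and 1450166_at gave -0.96, -1.06 and -1.06. Idua (0.37), Sgsh (0.29) and Galns (0.20) were higher, while Arsb, the sulfatase of dermatan and chondroitin sulfate, did not pass (0.04, adjusted p = 0.331).

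Genes for the breakdown of glycoproteins, glycogen and neutral lipids held, by the brightest probe set of each gene, the extremes in both directions. Of these, 4 of 8 were higher and 3 lower (median 0.19), and 4 and 4 with common median scaling. Aga, the amidase that cuts the bond between asparagine and its glycan, had signals of 1070, 1290 and 1560 in the pituitary gland, against 15.3, 72.7 and 170 in the brain. The lowest pituitary array was above the highest brain array by a wide margin in every strain. The log2 difference of 4.30 (SE 0.095, adjusted p = 1.41e-30) corresponds to 19.7-fold, and without the 4 arrays named above it was 4.31. Manba, the beta-mannosidase that acts near the end of the same route, gave 172, 217 and 251 in the pituitary gland, against 46, 99.6 and 143 in the brain (1.20, SE 0.044, adjusted p = 6.91e-24). Fuca1, the fucosidase, was higher by 0.42 and Man2b1, the acid alpha-mannosidase, by 0.41. Lipa, the acid lipase that frees cholesterol from lipoprotein esters, gave 64.8, 85.8 and 122 by its probe set 1450872_s_at, against 121, 210 and 415, and was lower by 1.34 on the log2 scale (SE 0.057, adjusted p = 8e-22). The highest pituitary array just passed the lowest brain array. Ppt1, which removes palmitate from proteins, gave 388, 548 and 593, against 425, 812 and 1100 (-0.57, SE 0.029, adjusted p = 3.59e-19), with overlapping ranges. Gaa, the acid alpha-glucosidase of glycogen, was lower at -0.31 by its probe set 1419428_a_at (adjusted p = 2.13e-06), and Acp2, an acid phosphatase, did not pass (-0.04, adjusted p = 0.329).

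Among the activators and carriers, 3 of 4 genes were higher and Psap, the precursor of the saposins, was lower (-0.21, adjusted p = 9.96e-07). With common median scaling, 2 were higher and 1 lower. Npc2, the soluble carrier that hands cholesterol to Npc1, had signals of 2260, 2820 and 3680 by its probe set 1448513_a_at in the pituitary gland, against 750, 1330 and 2090 in the brain. A second probe set (1416901_at) gave 1540, 1940 and 2230, against 390, 699 and 1040. Both showed a complete separation, with differences of 1.18 (SE 0.039, adjusted p = 4.79e-25) and 1.54 (SE 0.038, adjusted p = 2.75e-29). Grn, the precursor of progranulin, was 427 to 564 by its probe set 1448148_at, against 214 to 334 in the brain (0.87, adjusted p = 3.73e-24). That was the dimmest of the 3 probe sets of Grn, all of which were called higher. Gm2a, the activator of GM2 ganglioside breakdown, was higher by 0.12 (1448241_at, adjusted p = 0.00933), but at -0.02 with common median scaling.

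The proteases moved mostly one way, with 8 of 10 genes higher and none lower by the brightest probe set (median 0.25), a count that fell to 4 higher and 1 lower with common median scaling. Ctsz, a carboxypeptidase of the cathepsin family, gave 886, 1100 and 1380 by its probe set 1417868_a_at in the pituitary gland, against 187, 275 and 403 in the brain. Its probe set 1417870_x_at gave 673, 758 and 900, against 101, 154 and 225. The differences were 1.99 (SE 0.054, adjusted p = 9.68e-28) and 2.30 (SE 0.048, adjusted p = 1.79e-31), and no array of one tissue reached the other. Ctsl, a cysteine endopeptidase, gave 1750, 1930 and 2300 by its probe set 1451310_a_at, against 624, 927 and 1100 (1.14, SE 0.03, adjusted p = 3.69e-28). Ctsf (0.47), Ctsk (0.43), Ctsa, the protective protein of beta-galactosidase and Neu1 (0.17), the aspartyl protease Ctsd (0.14) and Tpp1, the tripeptidyl peptidase (0.11), showed smaller increases, of which those of Ctsd and Tpp1 turned to just below 0 with common median scaling. Ctsh (-0.03, adjusted p = 0.809) and Lgmn, the asparaginyl endopeptidase (-0.07, adjusted p = 0.0574), did not pass.

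Ctsb was the only gene with probe sets called in both directions in the pituitary gland, of 30 genes with several tested probe sets. Its bright probe set 1417490_at gave 3370, 3540 and 4360 in the pituitary gland, against 2240, 2980 and 3440 in the brain (0.32, adjusted p = 1.36e-13), and 1448732_at gave a difference of 0.36. By contrast, 1417491_at gave 51, 70.2 and 105 in the pituitary gland, against 173, 265 and 423 in the brain (-1.92, adjusted p = 3.17e-26), and 1417492_at gave 95.2, 119 and 133, against 207, 272 and 342 (-1.24, adjusted p = 2.44e-28). The dim pair separated the tissues completely and in the direction opposite to the bright pair, which had overlapping ranges. Which transcripts each probe set detects was not examined. Of the 30 genes, 12 had all probe sets higher, 3 had all lower and 1 had none called.

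Of the 6 membrane genes, 5 were higher and 1 lower (median 0.24), against 3 and 1 with common median scaling. Lamp2, a major glycoprotein of the lysosomal membrane, gave 865, 1110 and 1360 by its probe set 1416344_at in the pituitary gland, against 159, 277 and 468 in the brain (2.05, SE 0.07, adjusted p = 1.13e-24). Its brightest probe set (1434503_s_at) gave 929, 1110 and 1230, against 293, 452 and 666 (1.26, SE 0.046, adjusted p = 7.05e-24). The size of the increase therefore differed between probe sets of the gene, while all separated the tissues in 1 direction. Lamp1, its close relative, differed by only 0.14 (adjusted p = 1.15e-05). Scarb2, the receptor that carries glucocerebrosidase to the lysosome, gave 1490, 1570 and 1810 by its probe set 1454704_at, against 859, 1190 and 1420 (0.44, SE 0.027, adjusted p = 7.36e-17). Cln3, a membrane protein of unsettled function, was higher by 0.35 (1417551_at) and Npc1, the membrane exporter of cholesterol, by 0.14, while Mcoln1, a cation channel, was lower at -0.34 by its probe set 1416672_s_at (adjusted p = 1.61e-05).

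**Figure D2:**
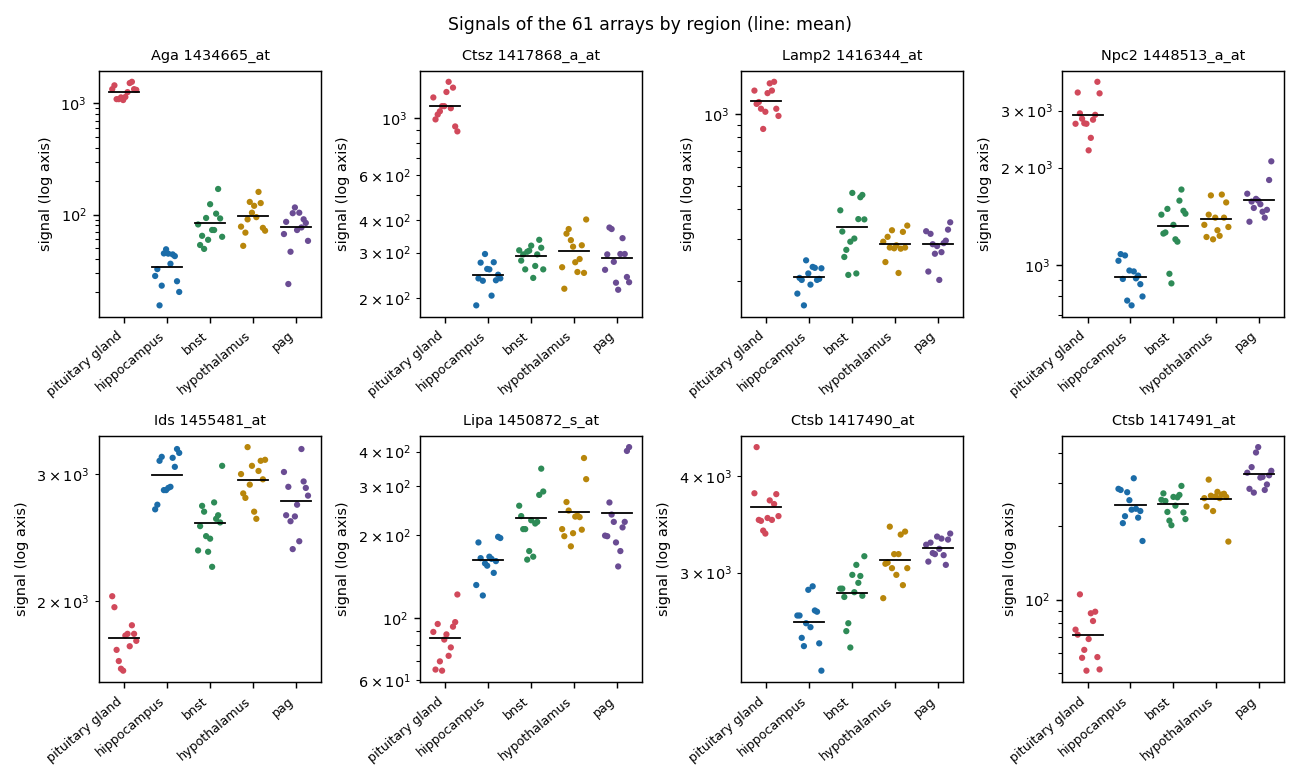
Signal of 8 probe sets on each array (vertical log axis, arbitrary units) by region, 1 point an array and a line at the mean of each region. Aga, Ctsz, Lamp2 and Npc2 are highest in the pituitary gland, Ids and Lipa are lowest there, and the 2 probe sets of Ctsb run in opposite directions.

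The differences can also be set out by the CACGTG element, with no test between the classes. In the pituitary gland, among the 14 genes with the element in their window, 11 were higher and 2 lower (median 0.24), and among the 23 without it 16 were higher and 5 lower (median 0.38). In the contrast of the hippocampus described next, 11 of the 14 with the element were lower and 0 higher (median -0.32), and 16 of the 23 without it were lower and 2 higher (median -0.24).

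Within the brain, the hippocampus was the low region. Set against the mean of the other 3 brain regions, which leaves out the pituitary gland, 5 of the 99 probe sets were higher and 54 lower in the hippocampus, beside 40.7% of all probe sets called (17.4% higher and 23.3% lower). With the pituitary gland among the other regions, 10 were higher and 59 lower, beside 48.3% of all probe sets called. By the brightest probe set, 2 genes were higher and 32 lower of 43, beside 49.2% of all genes called, and the median difference was -0.31 against -0.07 over all genes. With common median scaling, 3 were higher and 25 lower. All 10 proteases were lower (median -0.29), as were 7 of 8 genes for glycoprotein, glycogen and lipid breakdown (median -0.53), 5 of 8 for sphingolipids, 4 of 6 membrane genes, 4 of 7 for glycosaminoglycans and 2 of 4 activators. With common median scaling, 6 of 10 proteases and 7 of 8 of the glycoprotein, glycogen and lipid genes stayed lower. In the same contrast 6 of 9 microglial markers were higher (median 0.31) and 3 of 5 oligodendrocyte markers lower, and their part was not tested. The hippocampus was also the region measured from single mice. By the methods, it was frozen on dry ice at once, while the smaller structures were put in RNA Later buffer. Region and way of collection therefore cannot be told apart for the hippocampus.

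**Figure D3:**
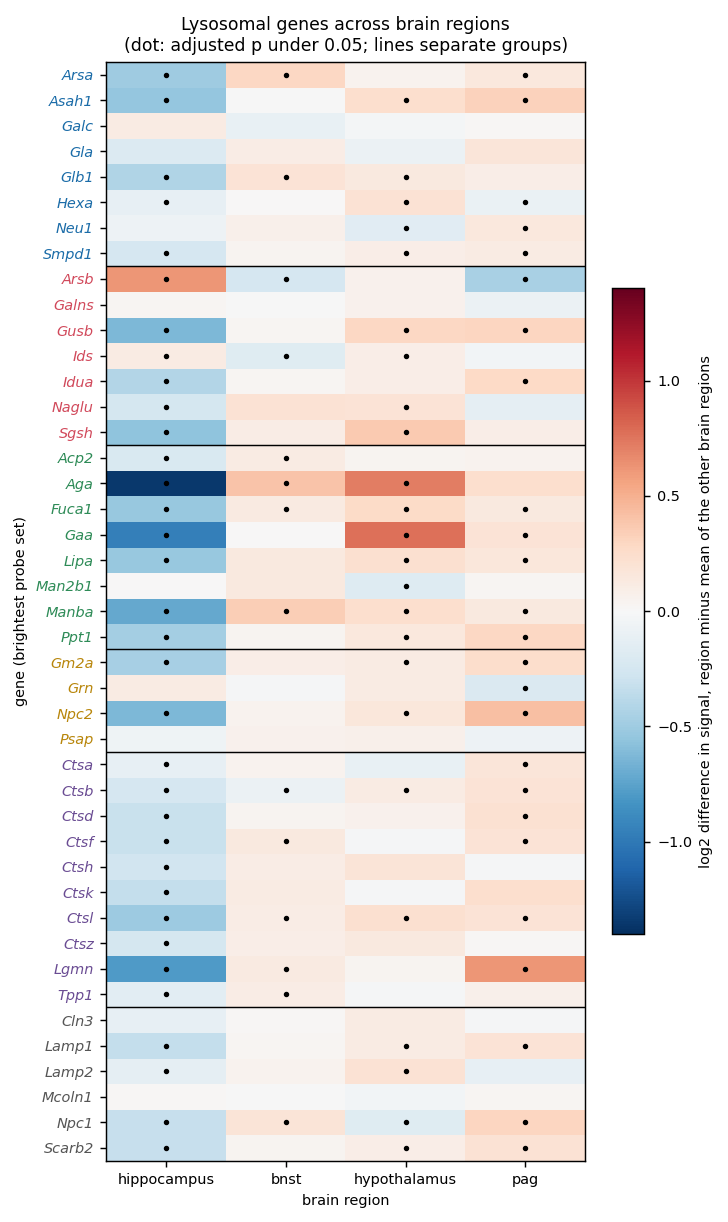
Heat map of the difference between each brain region and the mean of the other 3 (log2, colour scale) for the brightest probe set of each of the 43 genes, ordered by role, with a dot where the adjusted p was under 0.05. The hippocampus column is low for 32 genes and high for 2, and the pag and hypothalamus columns are mostly high.

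Gaa, the glycogen-degrading glucosidase, had the widest spread of differences among the brain regions after Aga, by the brightest probe set of each gene. Its probe set 1419428_a_at gave 725, 924 and 1270 (lowest, median and highest) in the hippocampus, 1060, 1580 and 1950 in the bnst, 1420, 1730 and 2080 in the pag and 2090, 2350 and 2670 in the hypothalamus. The hypothalamic arrays lay above all hippocampal arrays and all arrays of the other regions, and the bnst and pag overlapped. The hippocampus differed from the other brain regions by -0.96 (SE 0.054, adjusted p = 2.41e-17) and the hypothalamus by 0.77 (SE 0.054, adjusted p = 5.72e-14), each in all 6 strains. A second probe set (1436849_x_at) gave -1.21 and 0.94.

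Aga, highest in the pituitary gland, was also lowest in the hippocampus and highest in the hypothalamus among the brain regions. It averaged 33.7 ± 11.3 in the hippocampus, 77.4 ± 26 in the pag, 84.5 ± 33.3 in the bnst and 97.7 ± 31.2 in the hypothalamus (SD, n = 12 arrays each and 13 for the bnst). The difference was -1.35 in the hippocampus (SE 0.098, adjusted p = 2.92e-14) and 0.72 in the hypothalamus (SE 0.098, adjusted p = 2.46e-07), and the ranges of the pag, bnst and hypothalamus overlapped. Manba was 46, 61.6 and 93.3 in the hippocampus and differed there by -0.72 (adjusted p = 4.7e-16). Fuca1 was lower in the hippocampus too (-0.53, adjusted p = 1.34e-16 by 1416109_at), whereas Man2b1 did not pass (0.01 by 1416340_a_at, adjusted p = 0.915).

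Lgmn, the asparaginyl endopeptidase that cuts other lysosomal proteases into their mature forms, was highest in the pag among the brain regions. It gave 862, 920 and 1060 in the pag, 628 to 806 in the bnst, 621 to 819 in the hypothalamus and 392, 441 and 513 in the hippocampus. The pag arrays lay above all other brain arrays and the hippocampal arrays below all of them. The differences were 0.62 in the pag (SE 0.034, adjusted p = 5.07e-17) and -0.79 in the hippocampus (SE 0.034, adjusted p = 9.46e-21). Ctsl was 624, 676 and 771 in the hippocampus (-0.51, adjusted p = 1.9e-16), and Npc2 was 750, 918 and 1080 there (-0.63, adjusted p = 9.44e-16), with the pag higher at 0.42 (adjusted p = 1.42e-10). Arsa (-0.50), Asah1 (-0.54), Glb1 (-0.42), Lamp2 (-0.52 by 1416344_at), Lamp1 (-0.33), Scarb2 (-0.32) and Npc1 (-0.32) were lower in the hippocampus as well.

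Arsb was the main exception. It gave 910, 1190 and 1290 in the hippocampus by its probe set 1429189_at, against 756 to 975 in the hypothalamus and 548, 647 and 812 in the pag. The hippocampus was higher by 0.62 (SE 0.035, adjusted p = 2.79e-17) and the pag lower (-0.45, SE 0.035, adjusted p = 9.48e-13), each in all 6 strains. The dimmer probe set 1429190_at also placed the hippocampus high (0.58, adjusted p = 2.22e-07), whereas 1458281_at placed the pag high (0.40, adjusted p = 0.00117). With the pituitary gland among the other regions, the 3 probe sets of Arsb disagreed on the hippocampus. There 2 were called higher (up to 0.57) and 1 lower (-0.35). Ids was the other gene higher in the hippocampus, by 0.12 (adjusted p = 0.000729).

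The remaining brain regions differed less. In the pag, 39 of the 99 probe sets were higher and 6 lower than the mean of the other 3 brain regions. Of all probe sets 34.9% were called (20.5% higher and 14.3% lower). Lgmn, Npc2, Asah1 (0.32), Npc1 (0.30) and Ppt1 (0.29) led the increases by the brightest probe set, with Gusb (0.30). With common median scaling 19 probe sets were higher and 11 lower. Among bright probe sets 34 of 62 were higher and 5 lower in the pag. The share called was 62.9%, near the 58.1% of all bright ones (32.0% higher and 26.1% lower). In the same contrast 7 of 9 microglial markers were lower and 3 of 5 oligodendrocyte markers higher, and their part was not tested. In the hypothalamus 29 were higher and 5 lower, beside 29.4% of all probe sets, led by Gaa and Aga. Among bright probe sets 29 of 62 (46.8%) were called there, below the 54.0% of all bright ones. In that contrast 3 of 7 pituitary hormone markers were higher (median 1.48) and 3 of 5 oligodendrocyte and 3 of 5 endothelial markers lower. The hormone markers include Pomc, which was also listed as a marker of hypothalamic neurons. The part of these markers was not tested, and Aga was the gene highest in the pituitary gland relative to the brain. In the bnst 14 were higher and 7 lower, beside 18.7% of all probe sets (8.38% higher and 10.4% lower), led by Aga (0.40, adjusted p = 0.00209), Lamp2 (0.36 by 1416344_at) and Manba (0.34). Among bright probe sets 33.9% were called, beside 33.2% of all bright ones. All 5 choroid plexus markers (median 1.95) and 3 of 5 oligodendrocyte markers were higher in the bnst, and their part was not tested.

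Differences between strains were fewer but some were large. Against the mean of the other 5 strains, 129S6/SvEvTac had 17 of the 99 probe sets higher and 8 lower, beside 18.7% of all probe sets called (9.93% higher and 8.80% lower). A/J had 14 higher and 19 lower, beside 15.1% (7.74% and 7.36%). C3H/HeJ had 4 higher and 9 lower, beside 10.5% (5.23% and 5.28%). Among bright probe sets the share called was 17.7% in C3H/HeJ, beside 18.0% of all bright ones, and 32.3% in 129S6/SvEvTac, beside 31.5%. C57BL/6J had 21 higher and 17 lower, beside 22.0% (11.7% and 10.4%). DBA/2J had 15 higher and 5 lower, beside 13.5% (6.00% and 7.50%). FVB/NJ had 15 higher and 12 lower, beside 11.0% (5.68% and 5.32%). Common median scaling turned the balance for C57BL/6J to 6 higher and 28 lower and that for DBA/2J to 42 and 0, so the direction of small strain differences depended on the scaling. Of the strain differences named below, only that of Ppt1 1444884_at in C57BL/6J was no longer called with it. The probe sequences were not compared with the strains' sequences, and a base difference under a probe and a difference in RNA level cannot be told apart in these signals.

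Galc, the galactosylceramidase that degrades the main galactolipids of myelin (chr12:98202287-98259459, GRCm38.p6), showed the strongest strain pattern. Its probe set 1452907_at gave 10.6, 21.7 and 48.8 (lowest, median and highest of 10 arrays) in 129S6/SvEvTac and 12.6, 22.5 and 37.5 in FVB/NJ. The other strains gave 123, 200 and 237 in A/J, 142, 198 and 228 in C3H/HeJ, 99.3, 203 and 235 in C57BL/6J and 144, 204 and 258 in DBA/2J. The strains thus fell into a low pair and a high group of 4 with no overlap on any array of any region. The log2 difference from the other strains was -2.46 for 129S6/SvEvTac (SE 0.12, adjusted p = 6.36e-18) and -2.54 for FVB/NJ (SE 0.12, adjusted p = 3.22e-18), lower in all 5 regions for both, and 1.16 to 1.37 for the others. Several low values lay at the floor or near it, so these differences are on the floored scale. In the pituitary gland the arrays read 25.2 and 10.6 in 129S6/SvEvTac, 25.8 and 37.5 in FVB/NJ, 126 and 123 in A/J, 112 and 99.3 in C57BL/6J, 157 and 142 in C3H/HeJ and 144 and 200 in DBA/2J. The interaction of strain and region was not called for it (adjusted p = 0.349).

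A second probe set of Galc did not show that order. By 1420547_at, 129S6/SvEvTac averaged 104 ± 13 and FVB/NJ 93.8 ± 17.5 (SD, n = 10 each), against 60.7 ± 17.4 in A/J and 65.7 ± 9.89 in C3H/HeJ (n = 11). Here 129S6/SvEvTac (0.51, adjusted p = 7.43e-06) and FVB/NJ (0.32, adjusted p = 0.0048) were the high strains, and A/J (-0.47, adjusted p = 3.55e-05) and C3H/HeJ (-0.28, adjusted p = 0.0129) were low. The third, 1449900_at, lay at the floor on 40 of the 61 arrays and was called in no strain. The probe sets of Galc therefore ranked the same RNA samples in opposite ways, and neither is taken as the level of the gene.

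Gusb, the beta-glucuronidase (chr5:129989011-130003049), is a classical locus of strain variation, known for an allele of low enzyme activity in C3H mice. By its probe set 1430332_a_at, A/J gave 23.2, 33.8 and 61, against 53.9 to 148 over the 51 arrays of the other strains. A/J was lower in all 5 regions, with a small overlap between ranges (-1.42, SE 0.058, adjusted p = 2.71e-20), and C3H/HeJ was higher at 0.27. By 1448124_at, A/J averaged 84.8 ± 40.4, against 77.5 ± 43.7 in the other strains, and the difference did not pass (0.16, adjusted p = 0.2). The only call by that probe set was DBA/2J, higher by 0.27 (adjusted p = 0.0219). The low A/J signal was thus seen with 1 of the 2 probe sets of the gene.

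Lipa (chr19:34492316-34527474) also had opposing probe sets in FVB/NJ. By 1423140_at, FVB/NJ gave 11.9, 25 and 33.4, against 22.6 to 169 in the other strains (-1.63, SE 0.13, adjusted p = 8.31e-12). By 1450872_s_at, FVB/NJ gave 97, 303 and 415, against 64.8 to 279 (0.60, SE 0.061, adjusted p = 1.14e-09), and 1423141_at was higher too (0.33, adjusted p = 0.00869). The sign held in all 5 regions for each of the 3 probe sets, although the ranges overlapped because the regions differ.

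**Figure D4:**
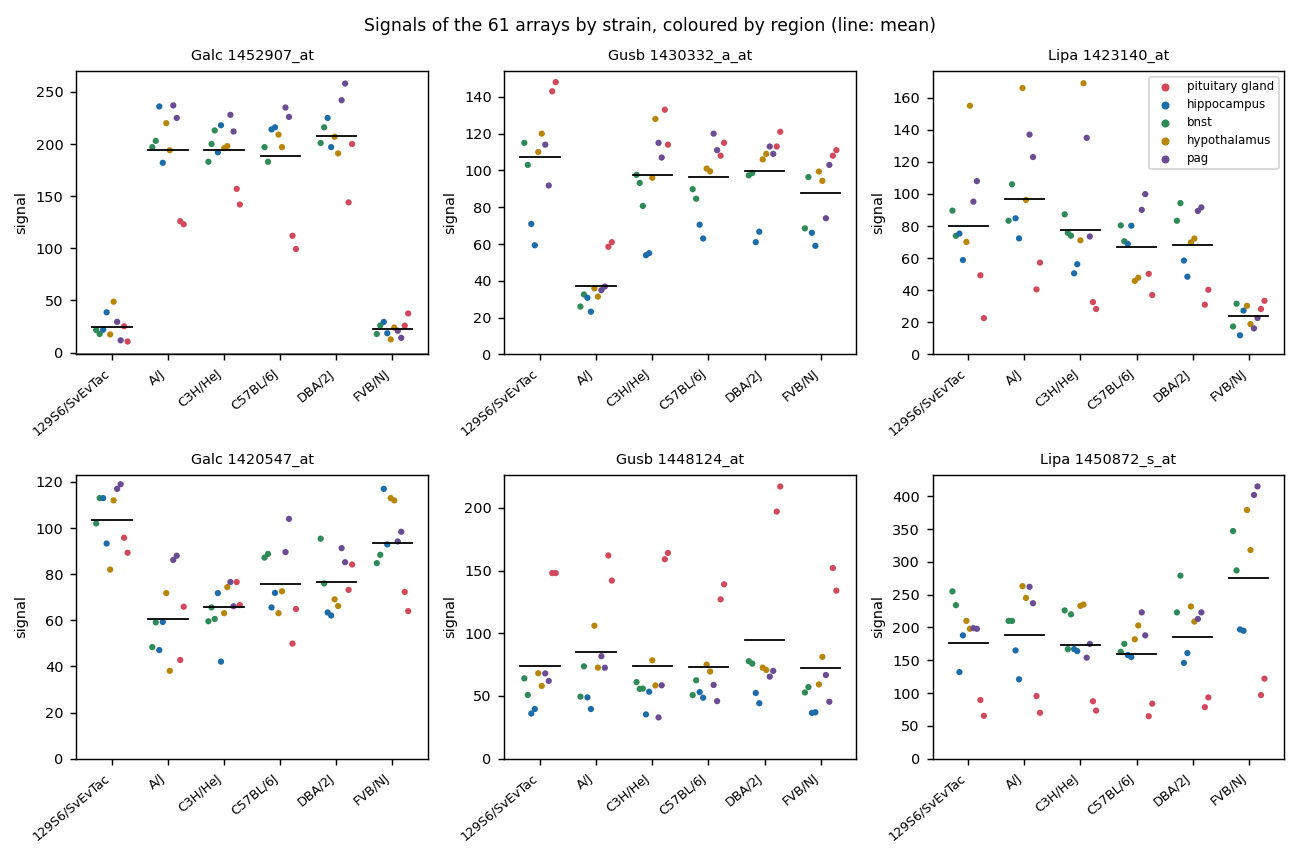
Signal of 2 probe sets each for Galc, Gusb and Lipa on every array (vertical linear axis, arbitrary units) by strain, coloured by region. The low strains of Galc 1452907_at, Gusb 1430332_a_at and Lipa 1423140_at are not low by the other probe set of the gene.

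Single strains stood out for several other enzymes. Ppt1, the palmitoyl thioesterase, gave 388, 548 and 639 in C57BL/6J by its probe set 1422467_at, against 432 to 1100 in the other strains (-0.51, SE 0.032, adjusted p = 3.75e-15), lower in all 5 regions. A dim probe set of the gene (1444884_at) was higher in C57BL/6J (0.36). Arsa, the sulfatidase, gave 394, 558 and 634 in DBA/2J, against 287 to 578 (0.38, SE 0.029, adjusted p = 1.13e-12). Ctsf, a cysteine protease, was 172, 239 and 379 in FVB/NJ, against 231 to 546 (-0.57, SE 0.046, adjusted p = 5.04e-12). All had overlapping ranges across regions and 1 direction in each of the 5 regions. Galns, the sulfatase of keratan sulfate, was 30.6, 60.3 and 88.6 in 129S6/SvEvTac, against 63.2 to 128 (-0.72, SE 0.076, adjusted p = 2.87e-09). Man2b1 was higher in C57BL/6J by both its probe set 1436781_at (0.99, adjusted p = 2.88e-06) and the brighter 1416340_a_at (0.32, adjusted p = 1.87e-05). Aga was lower in A/J (-0.68, adjusted p = 5.92e-06), Ctsh was lower in FVB/NJ (-0.65 by 1418365_at, adjusted p = 2.04e-06), Manba was higher in C57BL/6J (0.34, adjusted p = 9.48e-07) and Lamp2 was lower in 129S6/SvEvTac (-0.34 by 1428094_at and -0.30 by 1434503_s_at). Fuca1 was lower in 129S6/SvEvTac by 1416109_at (-0.24) and higher by 1456155_x_at (0.29) and 1437772_s_at (0.30). No strain contrast was called for Hexa, Asah1, Gla, Ctsk, Sgsh or the brightest probe sets of Ctsb, Ctsl, Ctsz, Lamp1, Neu1 and Scarb2.

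The strain differences depended on the region for a minority. The interaction passed for 11 of the 99 probe sets, beside 11.3% of all probe sets, a share like the background, and for 10 of the 62 bright ones, beside 20.4%. Tests of strain within a region were passed by 44 probe sets in the bnst (19.3% of all probe sets), 20 in the hippocampus (10.6%), 22 in the hypothalamus (10.9%), 21 in the pag (13.3%) and 36 in the pituitary gland (31.9%). When only bright probe sets were counted, the pituitary share was 45.2% (28 of 62), below the 49.0% of all bright ones. For each brain region the share stayed above that of all bright probe sets. It was 59.7% beside 31.9% for the bnst and 27.4% beside 17.9% for the hypothalamus. The hippocampus gave 25.8% beside 18.5%, and the pag 25.8% beside 22.1%. With 2 arrays a group, the values of single groups rest on few arrays.

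Lgmn had an interaction adjusted p of 0.00825. In the C57BL/6J pituitary gland it read 398 and 467, against 577 to 802 on the other pituitary arrays. The log2 difference of C57BL/6J from the other strains was -0.69 in the pituitary gland and between -0.18 and 0.08 in the 4 brain regions. Without replicate 1 of the C57BL/6J pituitary gland the interaction was no longer called (adjusted p = 0.077). Npc2 had an interaction adjusted p of 0.00848 by 1448513_a_at. In the bnst it read 939 and 877 in C57BL/6J and 1580 and 1710 in DBA/2J, against 1180 to 1490 on the other bnst arrays. The choroid plexus markers summed to 818 and 2920 in the C57BL/6J bnst, against 1970 on replicate 1 of A/J, 300 on replicate 3 of C3H/HeJ and 6310 to 10400 on the other bnst arrays, and their part was not tested.

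Fuca1 (1437772_s_at, interaction adjusted p = 0.00684) read 347 and 372 in the 129S6/SvEvTac pituitary gland and 186 and 203 in that of DBA/2J. The 129S6/SvEvTac difference was 0.60 in the pituitary gland and 0.03 in the hypothalamus. Ppt1 had the smallest interaction p by its dim probe set 1444884_at (adjusted p = 0.00599). In the pituitary gland it read 51.8 and 96.2 in FVB/NJ and 61.8 and 53 in C57BL/6J, against 17.6 and 16.9 in A/J and 19.5 to 30.8 in the remaining strains. Ids (1450166_at, adjusted p = 0.022) read 200 and 229 in the 129S6/SvEvTac pituitary gland, a difference of 0.62 from the other strains, and was lower in the A/J hypothalamus (209 and 209, -0.62). That interaction was not called with common median scaling (adjusted p = 0.0952).

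**Figure D5:**
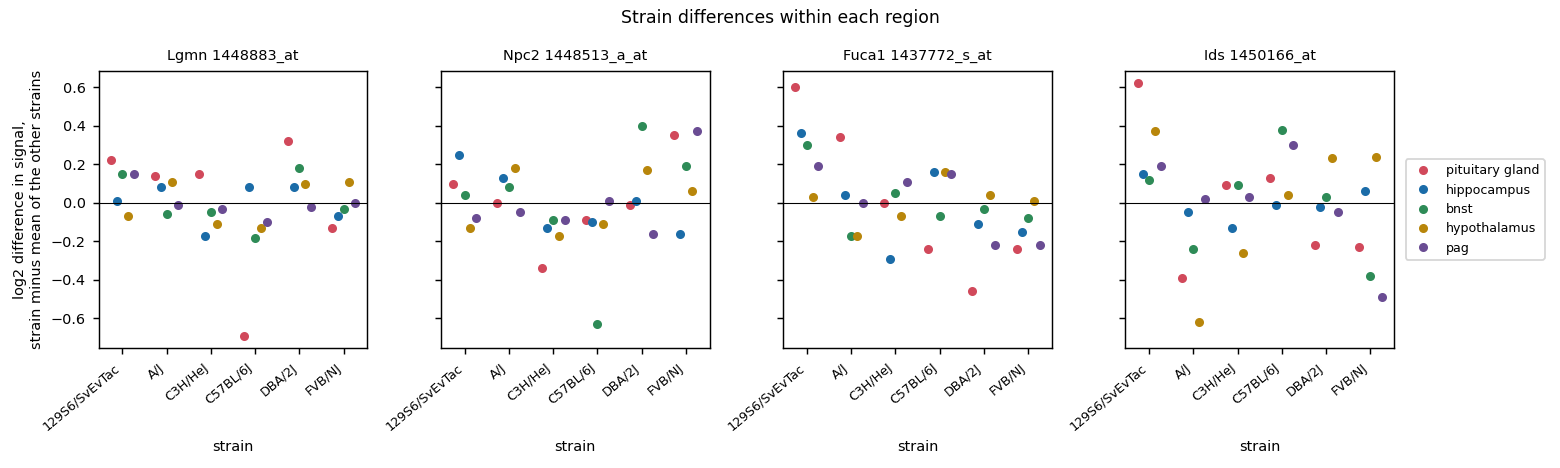
Difference of each strain from the mean of the other strains within each region (log2, vertical axis) for Lgmn, Npc2, Fuca1 and Ids, with points coloured by region. The pituitary point of C57BL/6J for Lgmn (-0.69) and its bnst point for Npc2 (-0.63) lie apart from the same strain's other regions.

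Other genes tied to the lysosome gave a different balance in the pituitary gland. They were further enzymes, membrane, proton pump and sorting genes, and regulators and inhibitors, and 34 were measured. Of these, 16 were higher and 14 lower (median 0.04), beside 42.9% higher and 29.1% lower over all genes (median 0.11). All values for this list are with the scaling as deposited. Among further enzymes 7 of 9 were higher (median 0.5), including Sumf1, which activates sulfatases (1.25), Hyal2 (1.23), Dnase2a (1.07) and Pla2g15 (0.81), while the cathepsin Ctss was lower (-0.81). Among genes for membrane, proton pump and sorting proteins 5 of 20 were higher and 11 lower (median -0.17). Subunits of the vacuolar proton pump were lower, with Atp6v1a at -1.92 (adjusted p = 8.36e-38), Atp6v0a1 at -1.11, Atp6v1b2 at -0.76, Atp6v1h at -0.43 and Atp6v0d1 at -0.34. The sorting receptors differed: both mannose 6-phosphate receptors, M6pr (0.65) and Igf2r (0.52), were higher and Sort1 lower (-1.04). Of the transcription factors of lysosomal genes, Tfe3 (0.83), Mitf (0.69) and Tfeb (0.62) were higher. In the hippocampus, against the other 3 brain regions, 9 of the 34 were higher and 9 lower, beside 18.1% higher and 31.1% lower over all genes. Sort1 (1.17) and Mfsd8 (0.80) were higher there and Tfeb (-0.33) lower.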

How the data were processed

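The deposited values were linear signal intensities of Affymetrix Mouse Genome 430 2.0 arrays, made and scaled per array by the authors with the TeraGenomics software; its scaling target is not given in the sources used here. Negative values (5.357%) and values under the 20th percentile (12.8) were set to that floor before log2, and the 972 probe sets at the floor on every array and 64 control probe sets were left out. Gene names came from the platform annotation, in which 34945 probe sets name 1 gene, 932 several and 9160 none. Strain by region groups were fitted on all 61 arrays with limma 3.58.1 (R 4.3.3; lmFit, eBayes with trend). Contrasts compared a region or strain with the mean of the others, and F tests compared strains, regions and their interaction, with Benjamini-Hochberg adjustment over 44065 probe sets and calls at 0.05. The methods' regression of linear signals was an alternative, with other floors, scalings and omitted arrays. The methods state that replicates came from independent animals or pools, so p-values measure the spread between such samples. Same-numbered replicates were not paired. Their deviations had a median r of -0.01 over 435 pairs of groups. Over the 60 pairs of regions of the same strain it was 0.01 (-0.33 to 0.41, with 13 over 0.1). Whether regions shared mice cannot be decided from these values, since replicate numbers need not match between regions. On simulated data, 95% of planted pituitary differences of 0.5 log2 units were recovered. They were planted in brighter probe sets only, with independent noise and few true differences. That share need not hold for dim probe sets or for the measured data. Probe sets named were Galc, Gusb, those ranked first by strain, pituitary, brain, and interaction results, and others by role. The members and lists were chosen with earlier results of these data known. Figures were drawn with matplotlib 3.10.9.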

Additional observations from a re-analysis of the deposited data

Results flagged for a closer look

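Strain differences that varied between regions were met in 11 probe sets, by the interaction test of limma with Benjamini-Hochberg adjustment over all probe sets. Besides Ppt1 1444884_at (adjusted p = 0.00599), Fuca1 1437772_s_at (0.00684), Lgmn (0.00825) and Npc2 1448513_a_at (0.00848), these were Gm2a 1416188_at (0.0148), Scarb2 1460235_at (0.0219), Ids 1450166_at (0.022), Gm2a 1448241_at (0.0242), Ids 1434751_at (0.0401), Ids 1421216_a_at (0.0429) and Mcoln1 1416672_s_at (0.0458). By Gm2a 1416188_at, FVB/NJ was at 0.55 and DBA/2J at -0.55 in the hypothalamus, relative to the other strains. By Scarb2 1460235_at, A/J was at -0.59 in the bnst and 0.06 in the pag. Ids 1421216_a_at placed FVB/NJ at -0.72 in the bnst and pituitary gland and at 0.32 in the hippocampus. Mcoln1 placed C3H/HeJ at -0.66 in the hypothalamus and 0.39 in the pituitary gland.

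The last 3 calls lay near the threshold. Leaving out each of the 61 arrays in turn kept the call for Ids 1434751_at in 37 of 61 fits, for Ids 1421216_a_at in 28 and for Mcoln1 in 17, and 6, 3 and 4 of 10 other settings kept them in the same order. Gm2a 1448241_at was not called without replicate 1 of the C3H/HeJ pituitary gland (adjusted p = 0.0562) or without the 4 arrays of other-tissue markers (0.055). With common median scaling, Scarb2 1460235_at (0.0514) and Ids 1450166_at (0.0952) were not called.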

How the results depend on the processing

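Of 601 called contrasts, 5 changed sign with common median scaling, none of them still called: in the pituitary gland Gm2a 1448241_at (-0.0194), Ctsd (-0.00089), Tpp1 1448313_at (-0.0267) and 1434768_at (-0.00945), and in DBA/2J Grn 1448148_at (0.0314). The methods' regression turned Npc2 1448513_a_at in the pag against all regions (-47.1 signal units) and Aga in C57BL/6J (-28.4 signal units, still called, adjusted p = 0.0322). Counting 1 probe set a gene, with p-values adjusted over all genes counted in this way, gave called genes of 39 in the pituitary gland, 37 in the hippocampus, 27 in the pag, 21 in the hypothalamus and 19 in the bnst. Within the brain it gave 34 in the hippocampus and 26 in the pag. By strain it gave 14 in 129S6/SvEvTac, 15 in A/J, 23 in C57BL/6J, 12 in DBA/2J and 15 in FVB/NJ. The F tests gave 34 for strain, 41 for region and 4 for the interaction, and 23 for strain within the bnst, 12 within the hippocampus, 13 within the hypothalamus and 17 within the pituitary gland. Common median scaling gave 21 probe sets for the hypothalamus within the brain, 5 for C3H/HeJ, 42 for DBA/2J, 14 for FVB/NJ and 13 for strain within the hippocampus. It split the pituitary calls into 41 higher and 25 lower, the hippocampus within the brain into 11 and 41, the hippocampus against all regions into 15 and 46, the bnst against all regions into 18 and 11, and the pag against all regions into 21 and 21. The methods' regression gave 23 for the interaction and 11 for strain within the hippocampus. Leaving out the 4 arrays with marker sums of another tissue, chosen after seeing the data, gave 7 for the interaction, 78 for the pituitary gland and 55 for the hippocampus within the brain.

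Leaving out each array in turn gave 78 to 82 for the pituitary gland, 67 to 72 for the hippocampus, 39 to 45 for the hypothalamus, 50 to 56 for the pag and 34 to 40 for the bnst. Within the brain the ranges were 54 to 62, 29 to 37, 43 to 49 and 19 to 25 in the same order without the pituitary gland. By strain they were 22 to 32 (129S6/SvEvTac), 23 to 35 (A/J), 9 to 15 (C3H/HeJ), 27 to 40 (C57BL/6J), 16 to 24 (DBA/2J) and 19 to 29 (FVB/NJ). The F tests gave 64 to 70 for strain, 81 to 84 for region and 8 to 21 for the interaction, highest without replicate 1 of the 129S6/SvEvTac hypothalamus. Strain within a region gave 31 to 46 (bnst), 15 to 24 (hippocampus), 20 to 31 (hypothalamus), 11 to 27 (pag, lowest without replicate 2 of FVB/NJ) and 29 to 39 (pituitary gland). With the replicate number as a block, which matches no pairing stated by the methods, the counts were 80 for the pituitary gland, 61 for the hippocampus within the brain, 68 for strain and 11 for the interaction.

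Of the 601 contrasts, a further 170 lost their call with common median scaling, 50 with quantile scaling, 37 with the methods' regression, 14 with the replicate block and 53 without the 4 arrays, among these Galc 1420547_at in C3H/HeJ (adjusted p = 0.0623). The Aga increase in the bnst was not called by the methods' regression (adjusted p = 0.338). Dim probe sets such as Galc 1449900_at, near the floor on most arrays, limit what can be seen, and groups of 2 arrays limit the interaction.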
